A study of Rattus norvegicus with 12 samples.

Results

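Transcripts of heart muscle were measured in 12 rat lung samples, 1 array a sample. The 10 genes described are Myh6, Actc1, Tnnc1, Pln, Mybphl, Myoz2, Trdn, Hspb7, Fabp3 and Nkx2-5, out of 14918 genes with a symbol on the array. They were picked because they rise and fall with Myh6 across these same 12 arrays, so their co-variation and their order over the arrays describe the choice and are given without a test. The array carries 11 probes for them, 2 of which belong to Trdn, and all 10 genes have a probe among the 21239 probes tested. One Trdn probe was tested. The other, between 2.32 and 4.48 on the log2 scale, was well above background on 1 array and was not tested.

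Heart muscle contracts by sliding thick filaments of myosin along thin filaments of actin, and calcium released from the sarcoplasmic reticulum starts each beat through the troponin complex. In rodents the lung is not free of heart muscle. Sleeves of atrial-type myocardium run from the left atrium along the pulmonary veins into the lung, and they use the fast alpha myosin heavy chain and atrial light chains. In bulk tissue, fewer cells of a type and less RNA per cell cannot be told apart.

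All animals were male Sprague-Dawley rats of 8 to 12 weeks. The RNA came from lung tissue, taken from the left upper lobe according to the study's methods. Control rats breathed air and received saline. The CS+LPS rats inhaled cigarette smoke and had lipopolysaccharide, a bacterial endotoxin, instilled into the trachea, which serves as a rat model of chronic obstructive pulmonary disease. The CS+LPS+NaHS rats had the same exposures after injections of sodium hydrosulfide, which releases hydrogen sulfide. The CS+LPS+PPG rats had the same exposures after injections of propargylglycine, which inhibits cystathionine gamma-lyase, an enzyme that forms hydrogen sulfide. Each group held 3 samples, which the study describes as individual subjects.

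Levels are given as log2 of the fluorescence intensity of a probe after the 75th percentile of each array was made equal. A probe was taken as well above background where the scanner software marked at least 50% of its spots on an array so, and below that line a value is only an upper bound. Between 66.0% and 75.5% of all probes passed on single arrays, no spot was saturated, and the 75th percentile of the signal was between 856 and 2222. The arrays lay on 2 slides, with control replicate 3 and the CS+LPS arrays on 1 slide and the other 8 arrays on the other. Control replicate 3 stood apart, with a correlation between 0.936 and 0.956 with the other arrays over all probes tested, compared with at least 0.975 for every other pair. The files of 3 arrays, control replicates 1 and 2 and CS+LPS+NaHS replicate 1, store the signal with 3 digits and the others with up to 7. Markers of lung epithelium were present on every array, as all 10 genes examined were tested and their mean log2 level stayed between 16.06 and 16.42. Sftpc, which encodes surfactant protein C, lay between 18.17 and 19.39.

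The filament genes come first. Myh6 encodes the alpha myosin heavy chain, a motor of the thick filament of heart muscle. Its log2 level was 3.42, 4.09 and 14.78 in control replicates 1, 2 and 3, and 13.23, 10.37 and 9.39 in CS+LPS. It was 4.23, 13.30 and 11.54 in CS+LPS+NaHS, and 13.46, 12.74 and 13.56 in CS+LPS+PPG. Myh6 was well above background on 9 of the 12 arrays, and the exceptions were control replicates 1 and 2 and CS+LPS+NaHS replicate 1, which are also the 3 arrays stored with fewer digits. On those arrays the unprocessed Myh6 spots read 65 to 84 over a local background of 35 to 41, compared with 736 to 16453.5 on the other arrays. The part that the stored digits, or an exchange of files or samples, may have in these values was not tested.

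Actc1 encodes cardiac alpha actin of the thin filament. In log2 units it lay at 12.59, 12.49 and 14.13 in the control, 13.86, 12.86 and 13.18 in CS+LPS, 13.25, 13.97 and 13.18 in CS+LPS+NaHS, and 14.20, 13.49 and 13.72 in CS+LPS+PPG. Control replicates 1 and 2 were the lowest arrays, and the groups overlapped in every comparison. Tnnc1 encodes the calcium-binding troponin C of heart and slow muscle. On the log2 scale it read 7.72, 7.64 and 10.69 in the control, 10.59, 9.04 and 8.55 in CS+LPS, 7.70, 10.79 and 9.19 in CS+LPS+NaHS, and 11.07, 10.45 and 11.02 in CS+LPS+PPG. The 3 lowest arrays were the same 3 as for Myh6.

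Mybphl encodes a protein related to myosin-binding protein C that is found in the atrium. The arrays gave log2 levels of 5.53, 4.73 and 8.58 in the control, 7.83, 6.50 and 5.89 in CS+LPS, 5.29, 8.01 and 6.76 in CS+LPS+NaHS, and 8.34, 7.81 and 8.40 in CS+LPS+PPG, with control replicate 2 not well above background. Myoz2 encodes myozenin 2 (calsarcin 1), a Z disc protein that binds the phosphatase calcineurin. Its log2 level was 3.03, 3.41 and 7.09 in the control, 7.68, 4.93 and 3.43 in CS+LPS, 2.93, 8.04 and 6.40 in CS+LPS+NaHS, and 8.12, 7.44 and 8.03 in CS+LPS+PPG. Myoz2 was not well above background on control replicates 1 and 2, CS+LPS replicate 3 and CS+LPS+NaHS replicate 1, and its CS+LPS+PPG arrays all lay above its control arrays.

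Pln and Trdn belong to the calcium store. Pln encodes phospholamban, which restrains the calcium pump of the sarcoplasmic reticulum, and was well above background on every array. It was measured at log2 levels of 8.66, 8.90 and 10.54 in the control, 10.18, 9.03 and 8.99 in CS+LPS, 9.69, 10.18 and 9.15 in CS+LPS+NaHS, and 10.31, 10.30 and 10.64 in CS+LPS+PPG. The CS+LPS+PPG arrays lay above all CS+LPS arrays. Trdn encodes triadin, which ties calsequestrin to the calcium release channel. The log2 level of its tested probe was 6.74, 6.41 and 9.73 in the control, 8.30, 7.09 and 7.34 in CS+LPS, 6.63, 8.62 and 7.50 in CS+LPS+NaHS, and 8.67, 8.23 and 8.80 in CS+LPS+PPG. Here too the highest array was control replicate 3, and the other control arrays were among the 3 lowest.

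Fabp3 encodes the fatty acid-binding protein of heart, which carries fatty acids inside the muscle cell. Log2 levels were 5.84, 5.88 and 8.30 in the control, 8.74, 7.77 and 6.83 in CS+LPS, 6.88, 9.10 and 7.99 in CS+LPS+NaHS, and 9.58, 9.23 and 10.08 in CS+LPS+PPG. Fabp3 was the gene for which the CS+LPS+PPG arrays were the 3 highest of the 12. Hspb7 encodes a small heat shock protein of heart muscle. Its log2 level was 6.0, 4.95 and 7.22 in the control, 6.15, 5.01 and 4.84 in CS+LPS, 5.32, 6.24 and 5.50 in CS+LPS+NaHS, and 6.54, 5.88 and 6.0 in CS+LPS+PPG, and it was not well above background on control replicate 2 and CS+LPS replicate 3. Nkx2-5 encodes a homeodomain factor needed for heart formation and for the myocardial identity of the pulmonary veins. The log2 level was 4.50, 5.21 and 7.27 in the control, 4.80, 5.83 and 3.75 in CS+LPS, 4.47, 5.83 and 5.02 in CS+LPS+NaHS, and 5.72, 5.37 and 5.79 in CS+LPS+PPG. Control replicate 3 was the highest array for both genes, and Nkx2-5 was not well above background on control replicate 2, CS+LPS replicate 3 and CS+LPS+NaHS replicate 1.

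**Figure D1:**
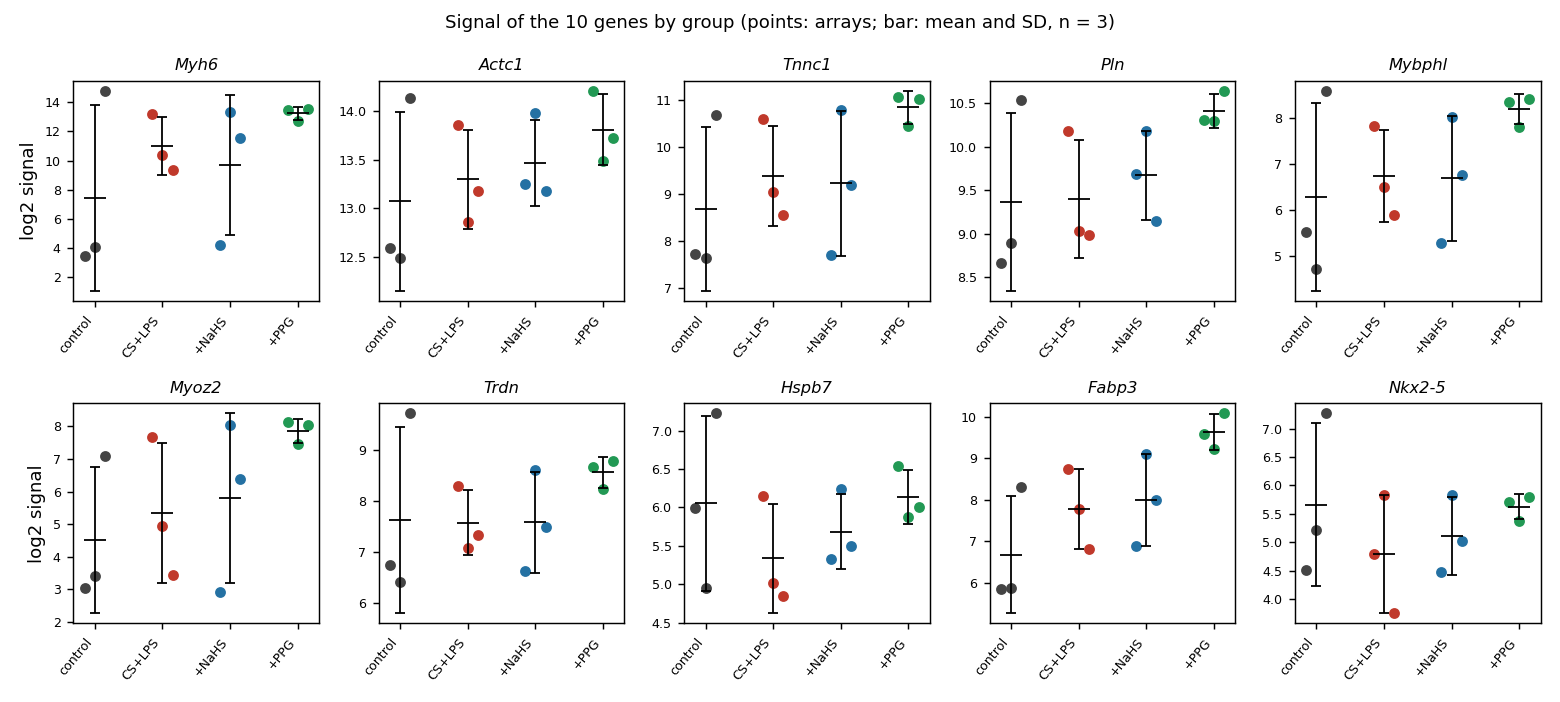
Log2 signal (vertical axis, 75th percentile of each array made equal) of the 10 genes in the 4 groups, 1 panel a gene. Points are arrays, and the bar is the mean with the SD of 3 arrays. The control arrays of Myh6 sit at 3.42, 4.09 and 14.78, and its CS+LPS+PPG arrays between 12.74 and 13.56. On the axis, CS+LPS is left out before +NaHS and +PPG.

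Of the 120 pairs of a gene and an array, 107 were well above background, and 5 genes were so on all 12 arrays. The tested probe of Trdn has 1 spot on an array, and those of the other genes have 2. Where a probe was well above background, its spots differed by a median of 0.0972 on the log2 scale. The single spots of Trdn enter this median with a difference of 0, which lowers it. The largest such difference, 1.33, belonged to Nkx2-5.

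Promoter sequences show what these genes hold ahead of their starts. RefSeq (assembly GRCr8) gave the 250 bases before the start for 9 of the 10 genes. On both strands, 33469 promoters were searched for 6 motifs, namely TATAAA and motifs of heart and muscle factors. Those of Myh6, Myoz2 and Hspb7 are shown because they held the motifs closest to their starts or the rarest motif found, written 5′ to 3′ on the gene's strand with the matches in capitals. The capitals mark CATTCC in Myh6, a MEF2 site in Myoz2, and a MEF2 site followed by TATAAA in Hspb7, none of which overlap.
Myh6, chr15:32411698-32411947, minus strand: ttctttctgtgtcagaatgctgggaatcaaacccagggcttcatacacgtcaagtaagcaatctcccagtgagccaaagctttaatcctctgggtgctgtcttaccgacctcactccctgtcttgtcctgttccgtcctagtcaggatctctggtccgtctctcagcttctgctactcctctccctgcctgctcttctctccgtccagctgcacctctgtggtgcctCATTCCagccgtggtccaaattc
Myoz2, chr2:213852779-213853028, minus strand: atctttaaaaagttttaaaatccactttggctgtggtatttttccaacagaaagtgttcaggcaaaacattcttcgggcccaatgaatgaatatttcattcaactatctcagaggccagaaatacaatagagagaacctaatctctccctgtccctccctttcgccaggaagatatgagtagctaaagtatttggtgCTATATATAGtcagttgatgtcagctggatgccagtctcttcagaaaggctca
Hspb7, chr5:159010509-159010758, plus strand: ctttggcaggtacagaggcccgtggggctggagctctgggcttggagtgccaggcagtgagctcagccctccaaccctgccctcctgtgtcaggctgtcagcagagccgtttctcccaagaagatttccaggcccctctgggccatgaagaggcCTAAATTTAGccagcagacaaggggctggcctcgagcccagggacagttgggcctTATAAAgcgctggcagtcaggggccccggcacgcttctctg
CATTCC, the core bound by TEAD factors, lay 23 to 18 bases before the start of Myh6 and was present in 12.1% of all promoters. The MEF2 site, bound by the MEF2 factors of muscle, lay 53 to 44 bases before the start of Myoz2 and 96 to 87 bases before that of Hspb7, and was present in 2.96% of all promoters. TATAAA, a general promoter motif and not a site of a heart or muscle factor, lay 41 to 36 bases before the start of Hspb7. It was present in 12.9% of all promoters. GATAA, a core of GATA factor sites, was found 115 to 111 bases before the start of Pln and 105 to 101 bases before that of Mybphl, and in 23.5% of all promoters. TNAAGTG, a core bound by Nkx2-5, and the CArG box of serum response factor were in none of the 9 windows, and in 9.89% and 1.5% of all promoters. With 9 windows these shares are a description of the letters and not of binding.

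Ordered by Myh6, the arrays ran from control replicate 3 through CS+LPS+PPG replicates 3 and 1, CS+LPS+NaHS replicate 2, CS+LPS replicate 1 and CS+LPS+PPG replicate 2. CS+LPS+NaHS replicate 3, CS+LPS replicates 2 and 3, CS+LPS+NaHS replicate 1 and control replicates 2 and 1 followed. On the first 6 arrays of this order between 9 and 10 of the 10 genes were above their own median over the 12 arrays, and on the last 6 arrays 0 or 1 were. The order thus cut across the groups, as the control held the highest and the lowest arrays. Neighbours in the order were often close, such as CS+LPS+PPG replicates 3 and 1 at 13.56 and 13.46 for Myh6, which is within the SD of that group (0.44), and the 3 arrays not well above background have no order among themselves. Control replicate 3 had the highest value of 5 genes, CS+LPS+PPG replicate 1 of 3 and CS+LPS+PPG replicate 3 of 2. The lowest value fell on control replicate 2 for 4 genes, on control replicate 1 for 3, on CS+LPS replicate 3 for 2 and on CS+LPS+NaHS replicate 1 for 1.

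**Figure D2:**
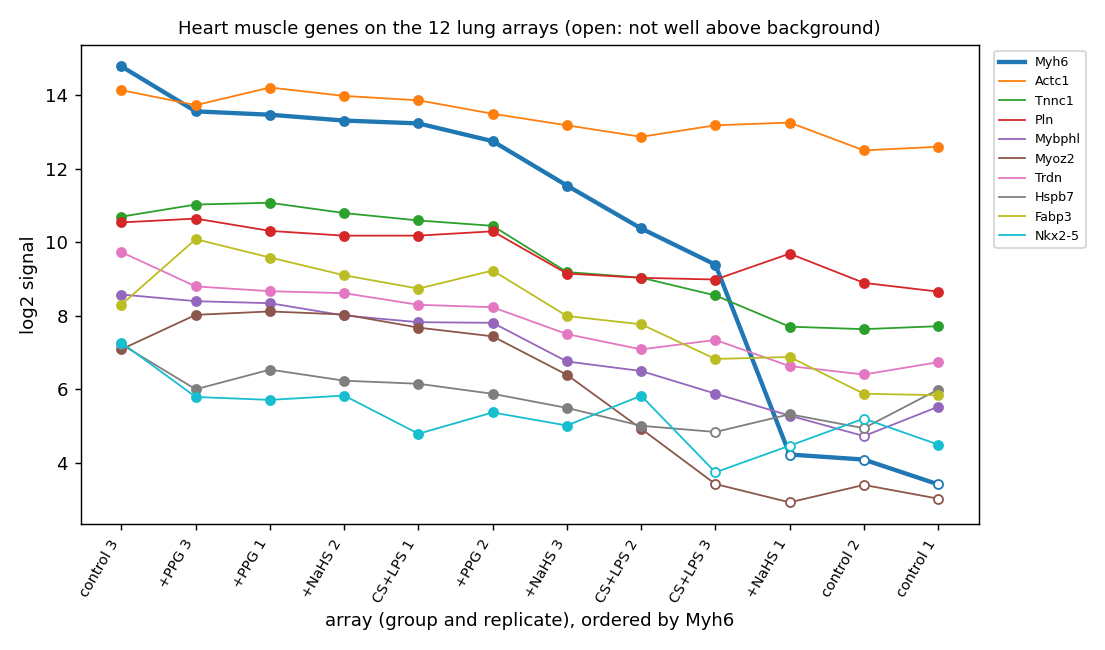
Log2 signal of the 10 genes (vertical axis) on the 12 arrays, ordered along the horizontal axis by the level of Myh6, 1 line a gene. Open markers are values not well above background. The lines fall broadly together from control replicate 3, where Myh6 is at 14.78, to control replicate 1, where it is at 3.42, with Actc1 spanning 1.71 log2 units.

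The range over the arrays differed between the genes. From the lowest to the highest array, Fabp3 spanned 4.24 log2 units, Tnnc1 3.43, Trdn 3.32, Pln 1.98 and Actc1 1.71. For the other 5 genes the lowest value was not well above background, so that the span is a lower bound, of 11.21 for Myh6, 5.19 for Myoz2, 3.85 for Mybphl, 3.52 for Nkx2-5 and 2.38 for Hspb7. The median span as measured was 3.48, compared with 1.06 over all probes tested, and 8 genes spanned more than 2 log2 units, compared with 13.7% of the probes. For each log2 unit of Myh6, with values not well above background taken as measured, the log2 level changed by 0.48 for Myoz2, 0.32 for Tnnc1, 0.31 for Mybphl and 0.30 for Fabp3, by 0.23 for Trdn and 0.13 for Pln and Nkx2-5, and by 0.12 for Actc1 and 0.10 for Hspb7. Hspb7 and Actc1 had the shallowest slopes.

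Pearson's r with Myh6 over the 12 arrays was 0.95 for Tnnc1, 0.94 for Mybphl, 0.92 for Myoz2, 0.90 for Trdn, 0.89 for Fabp3, 0.83 for Actc1, 0.76 for Pln, and 0.59 for both Hspb7 and Nkx2-5. These values chose the genes and carry no test. The 12 points share the platform and 2 slides, and the r of a gene with Myh6 rests in part on the 3 arrays where Myh6 was only background. Over the 9 arrays with Myh6 well above background, r was 0.98 for Mybphl, 0.96 for Hspb7, 0.94 for Trdn, 0.93 for Tnnc1 and Pln, 0.89 for Myoz2, 0.88 for Actc1, 0.75 for Fabp3 and 0.72 for Nkx2-5. Pln and Hspb7, with the weaker r over 12 arrays, thus followed Myh6 closely where Myh6 could be measured. Over all 45 pairs of the 10 genes the median r was 0.838, from 0.509 for Nkx2-5 and Fabp3 to 0.985 for Mybphl and Tnnc1. Of all probes tested, 0.273% had an r of at least 0.8 with Myh6 over 12 arrays and 1.72% over 9 arrays, and the median r of all probes over 12 arrays was 0.01.

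The genes outside the 10 that were most like Myh6 over the 12 arrays, by Pearson's r of log2 level among 11318 genes ranked, were largely heart muscle genes too. The first 20 were Myh7 (0.998), Csrp3 (0.996), Ckmt2 (0.994), Myl7 (0.990), Hamp (0.982), Tnni3 (0.973), Sln (0.971), Hhatl (0.966), Cox6a2 (0.955), Tnnt2 (0.943), Ckm (0.940), Smpx (0.937), Mybpc3 (0.936), Myh8 (0.930), Ldb3 (0.929), Pgam2 (0.918), Casq2 (0.897), Lrrc39 (0.896), Ift70b (0.890) and Dbp (0.879). Of these 20, 14 stand in the lists of heart and striated muscle genes that were examined. Myh7, the slow myosin heavy chain, is nearly identical in sequence to Myh6, so its signal is uncertain, since a probe could bind both. Ift70b, a gene of cilia, followed Myh6 at a slope of only 0.02 and spanned 0.25 log2 units. Hamp encodes the iron hormone hepcidin and Dbp a transcription factor of the circadian clock, so the likeness was not limited to genes of contraction. Over the 9 arrays with Myh6 well above background, r was 0.94 for Hamp, 0.80 for Ift70b and 0.72 for Dbp. Ranked by Spearman's rho, 14 of the 20 were shared, and 18 were shared when the mean of the 10 genes took the place of Myh6.

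Genes that mark the chambers of the heart differed among themselves. Among 10 genes of atrial and pulmonary vein myocardium, 6 were tested. Myl7, the atrial regulatory light chain, had a log2 level of 5.36, 5.03 and 14.85 in the control, 14.17, 11.45 and 10.56 in CS+LPS, 3.82, 14.25 and 12.50 in CS+LPS+NaHS, and 14.76, 13.82 and 14.76 in CS+LPS+PPG. Sln, which encodes sarcolipin, an atrial inhibitor of the calcium pump, had 4.12, 4.87 and 9.83, then 10.04, 7.62 and 6.77, then 5.42, 10.20 and 8.55, then 10.49, 10.04 and 10.62 in the same group order. Myl4, the atrial essential light chain, lay between 7.34 and 11.73 with an r of 0.87. In contrast Gja5, a connexin, and Tbx5, a T-box factor, had an r of -0.44 and 0.06 with Myh6, and Kcnj3 of 0.21. Over the 9 arrays with Myh6 well above background, r was 0.94 for Kcnj3, -0.19 for Gja5 and 0.03 for Tbx5. Nppa, which encodes the atrial natriuretic peptide, and Bmp10 were not well above background on any array. Of 4 genes that were listed for ventricular myocardium, Myh7 followed Myh6 as given above and spanned 10.08 log2 units, whereas Myl2, the ventricular regulatory light chain, and Irx4 were not well above background on any array, and Myl3 lay between 3.02 and 6.16, was well above background on 7 arrays and had an r of 0.55.

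Of 13 tested genes of the sarcomere and Z disc 7 had an r of at least 0.8 with Myh6 over all 12 arrays, and of 9 tested genes of the muscle's energy supply 5 did. The most intense probe of Tpm1, a tropomyosin, had an r of -0.26 and its other probe 0.61. Mypn and Pdk4 had an r of -0.10 and -0.24, and Ankrd1 and Nrap of 0.33 and 0.42. Tnni3, cardiac troponin I, lay at 6.36, 6.38 and 12.40 in the control, 11.61, 9.52 and 8.08 in CS+LPS, 6.44, 11.65 and 9.57 in CS+LPS+NaHS, and 12.27, 11.52 and 12.14 in CS+LPS+PPG on the log2 scale. Tnnt2, cardiac troponin T, lay between 8.72 and 13.42, and Mb, the oxygen-binding myoglobin, between 9.05 and 12.17 with an r of 0.83. The mean log2 level of the 13 tested sarcomere and Z disc genes correlated with Myh6 at r = 0.93 and that of the 9 tested energy genes at 0.94. It was 0.60 for the 13 tested genes of calcium handling and excitation, which include Casq2, the calcium-binding calsequestrin of the heart, and 0.23 for 6 cardiac transcription factors. Ryr2, the calcium release channel, and the factors Tbx20, Hand1 and Hand2 were not well above background on any array.

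**Figure D3:**
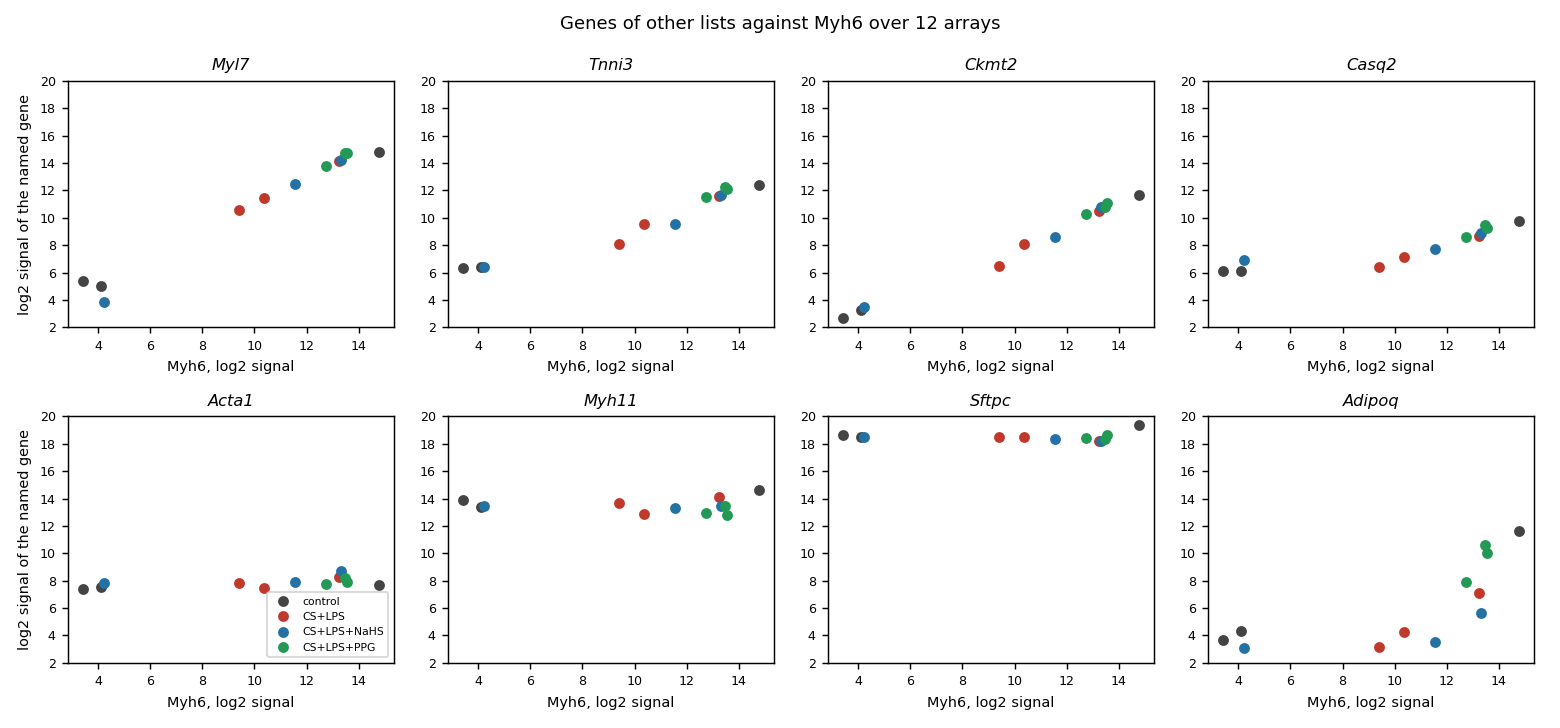
Log2 signal of Myl7, Tnni3, Ckmt2, Casq2, Acta1, Myh11, Sftpc and Adipoq (vertical axes) against that of Myh6 (horizontal axis), 1 point an array. Myl7, Tnni3, Ckmt2 and Casq2 rise with Myh6 over the 12 arrays, Myh11 (r = 0.04) and Sftpc (r = 0.06) do not, and Adipoq is high on control replicate 3 and the CS+LPS+PPG arrays.

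The mean of the skeletal muscle genes followed Myh6 loosely and in a small range, and that of the smooth muscle genes did not. The skeletal muscle mean was 7.32 both on control replicate 2 and on CS+LPS+NaHS replicate 2, which lie far apart in Myh6. Of 20 skeletal muscle genes, 17 were on the array and 9 were tested, and their mean log2 level lay between 7.05 and 7.73 with an r of 0.62 with Myh6. Of these 9, Tnnc2, fast troponin C, had an r of at least 0.8 (0.87), from 6.19 to 8.22 on the log2 scale, and the lowest r was -0.38. Acta1, skeletal alpha actin, lay between 7.42 and 8.67, and Myh1, Myh4 and Myl1 of fast skeletal fibres were not well above background on any array. The mean of the 9 tested smooth muscle genes had an r of 0.04 with Myh6, with 0.03 for Acta2, smooth muscle alpha actin, and 0.04 for Myh11, the smooth muscle myosin heavy chain. The r was -0.47 for lung epithelium, -0.11 for red blood cell genes, -0.16 for mesothelium, 0.14 for pancreas and -0.28 for thymus and T cells. Hba-a1, a haemoglobin chain, lay between 17.87 and 18.84.

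Fat markers moved in part with the heart genes. Of 11 genes of white and brown fat, 10 were on the array and 9 were tested, and their mean had an r of 0.67 with Myh6. The log2 of their summed signal ran from 12.36 to 15.42 in the control, 12.85 to 13.20 in CS+LPS, 12.83 to 13.23 in CS+LPS+NaHS and 13.69 to 14.29 in CS+LPS+PPG. Adipoq, the fat cell hormone adiponectin, lay at 3.68, 4.32 and 11.61 in the control, 7.12, 4.26 and 3.13 in CS+LPS, 3.08, 5.62 and 3.51 in CS+LPS+NaHS, and 10.64, 7.91 and 10.01 in CS+LPS+PPG. Ucp1, the uncoupling protein of brown fat, was at 13.24 on control replicate 3 and at most 5.93 on the other arrays, and leptin (Lep) was well above background on 2 arrays. The arrays with high Myh6 and high fat markers were therefore control replicate 3 and the CS+LPS+PPG arrays. CS+LPS replicate 1 and CS+LPS+NaHS replicate 2 had Myh6 at 13.23 and 13.30 with Adipoq at 7.12 and 5.62. The part of fat tissue in the values of the heart genes was not tested.

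**Figure D4:**
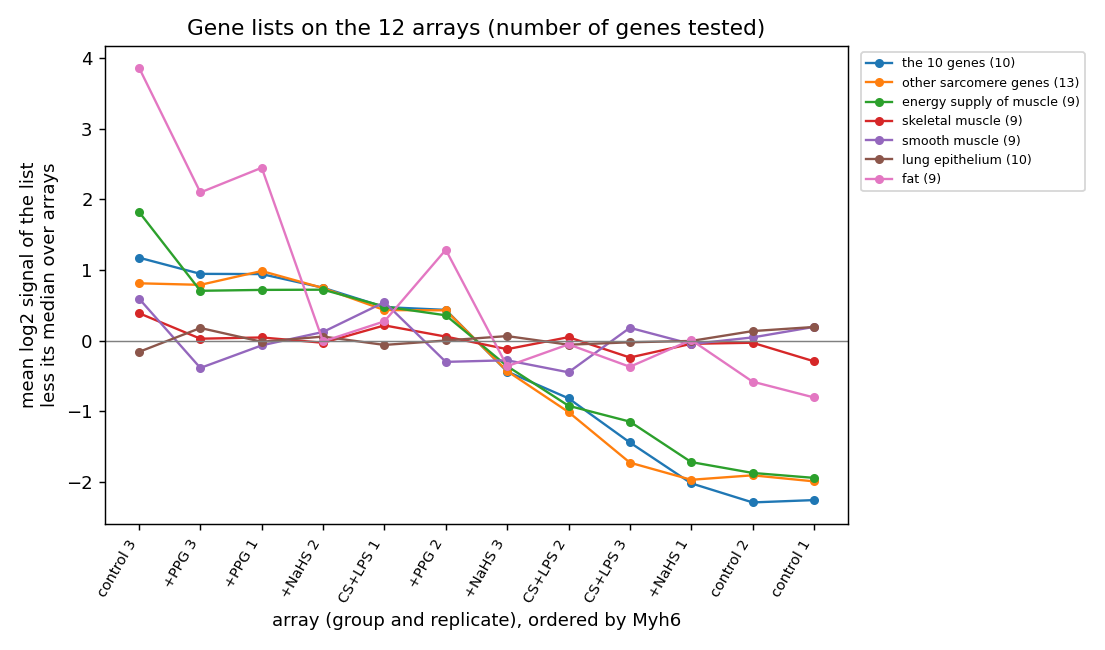
Mean log2 signal of a list's tested genes minus the median of that mean over the arrays (vertical axis), for the 12 arrays in the order of Myh6 (horizontal axis). The 10 genes, the 13 sarcomere genes and the 9 energy genes fall together along the order. The skeletal muscle mean falls less and not steadily, from 7.73 on control replicate 3 to 7.05 on control replicate 1. Smooth muscle (r = 0.04) and lung epithelium (r = -0.47) do not fall with Myh6, and fat genes peak on control replicate 3. The axis labels leave out the CS+LPS that the +NaHS and +PPG arrays share.

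The comparisons of groups describe how these transcripts differed between control rats, rats given smoke with endotoxin, and those given NaHS or propargylglycine as well. Whether the exposures caused a difference was not tested. In the control, the SD of the 10 genes had a median of 1.59 log2 units, compared with 0.31 over all probes tested, and it was 0.97, 1.05 and 0.35 in CS+LPS, in CS+LPS+NaHS and in CS+LPS+PPG, compared with 0.21, 0.14 and 0.18. The CS+LPS+PPG mean was the highest of the 4 groups for 9 genes and the control mean the lowest for 7. For Myh6 the group mean was 7.43 ± 6.37 (SD, n = 3) in the control, 11 ± 1.99 in CS+LPS, 9.69 ± 4.81 in CS+LPS+NaHS and 13.25 ± 0.44 in CS+LPS+PPG, where values not well above background enter the means of the control and CS+LPS+NaHS. For Fabp3 it was 6.68 ± 1.41, 7.78 ± 0.96, 7.99 ± 1.11 and 9.63 ± 0.43.

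Calls in limma required that group means differ 2-fold or more with a two-sided p below 0.05 before adjustment, which are the thresholds of the study. Calls at a Benjamini-Hochberg adjusted p below 0.05 are given beside them. In CS+LPS compared with the control, 0 of the 10 genes were called, in a comparison that called 4.56% of all probes, or 2.02% by the adjusted p. No gene had an unadjusted p under 0.05 in limma, and the methods' t-test called none either. The median difference of the 10 genes was 0.34 on the log2 scale, compared with -0.04 over all probes, and it was -0.13 without control replicate 2 and -0.21 without CS+LPS replicate 1. The difference was 3.57 for Myh6 (SE 2.90) and 1.10 for Fabp3 (SE 0.74), and the arrays of the groups overlapped for all 10 genes, while they did not for 25.2% of all probes.

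In CS+LPS+NaHS compared with the control, 0 of 10 genes were called, against 2.67% of all probes and 0.0989% by the adjusted p, and again none had an unadjusted p under 0.05 in limma or was called by the methods' t-test. The median difference was 0.40, but -0.09 without CS+LPS+NaHS replicate 2. Myh6 differed by 2.26 (SE 2.90) and Fabp3 by 1.31 (SE 0.74), and all 10 genes overlapped, while 24.8% of all probes did not. In CS+LPS+NaHS compared with CS+LPS, 0 of 10 genes were called by either tool, against 1.7% and 0.593% of all probes, with none at an unadjusted p under 0.05 in limma. The median difference was 0.19, but -0.23 without CS+LPS replicate 3 and -0.43 without CS+LPS+NaHS replicate 2. Myh6 differed by -1.30 (SE 2.90), and no gene's groups were apart, against 20.5% of all probes. The CS+LPS arrays all lay on a different slide from the CS+LPS+NaHS arrays, so group and slide cannot be told apart here.

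CS+LPS+PPG differed most from the control in these genes. The median difference was 1.48, compared with -0.01 over all probes, and it was 5.82 for Myh6 (SE 2.90), 3.35 for Myoz2 (SE 1.43), 2.96 for Fabp3 (SE 0.74; 7.75-fold), 2.16 for Tnnc1 (SE 0.91) and 1.90 for Mybphl (SE 0.94). Pln differed by 1.05, Trdn by 0.94, Actc1 by 0.73, Hspb7 by 0.09 and Nkx2-5 by -0.03. Tnnc1, Myoz2 and Fabp3 were called, 3 of 10 genes, in a comparison that called 4.38% of all probes, and Fabp3 alone by the adjusted p, which called 4.64%. Myoz2 passed the filter only through its 3 CS+LPS+PPG arrays. It was well above background on 1 array of the control, 2 of CS+LPS and 2 of CS+LPS+NaHS. Its call and its lack of overlap with the control are therefore no support. The methods' t-test called 1, Fabp3, and limma called 1 gene when control replicate 1, control replicate 2 or any 1 of the CS+LPS+PPG arrays was left out. The groups did not overlap for Myoz2 and Fabp3, and for 33.1% of all probes. In CS+LPS+PPG compared with CS+LPS the median difference was 1.23, compared with 0.02 over all probes, and all 10 differences were above 0, from 0.51 for Actc1 to 2.52 for Myoz2. The CS+LPS arrays all lay on a different slide from the CS+LPS+PPG arrays, so group and slide cannot be told apart in this comparison. Fabp3, at 1.85 (SE 0.74), was called, and 2.05% of all probes were, with no gene by the adjusted p, which called 0.523% of all probes. With 1 array left out in turn, between 0 and 3 of the 10 genes were called. The groups did not overlap for Pln and Fabp3, and for 19.1% of all probes. These 5 comparisons share their control or CS+LPS arrays and, with the genes chosen on the same arrays, nothing was read from the counts.

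The counts changed when control replicate 3 was left out. Without it, 2 genes (Myh6 and Fabp3) were called in CS+LPS and 2 (the same pair) in CS+LPS+NaHS compared with the control, in comparisons that called 2.88% and 1.94% of all probes, or 1.37% and 0.0706% by the adjusted p. In CS+LPS+PPG, 8 genes were called, all but Hspb7 and Nkx2-5, against 3.11% of all probes, and Myh6, Pln and Fabp3 by the adjusted p, against 3.02%. Myoz2, among the 8, was tested only through its CS+LPS+PPG arrays. The median differences became 1.31, 1.28 and 2.52. As the remaining controls did not measure Myh6 or Myoz2 above background, folds were computed against, on each of those arrays, the higher of the lowest signal well above background and the probe's own signal. Myh6 was then at least 144-fold higher in CS+LPS and at least 687-fold higher in CS+LPS+PPG, and Myoz2 at least 20.8-fold higher in CS+LPS+PPG. Control replicates 1 and 2 lay on a different slide from the CS+LPS arrays. Without control replicate 3, the difference of CS+LPS from the control therefore cannot be told apart from the slide. Within slides, the direction depended on which control was at hand. On the slide with control replicate 3, all 10 genes were lower in the 3 CS+LPS arrays than in that 1 control array, with a median difference of -1.79. On the other slide, all 10 were higher in CS+LPS+NaHS (median 1.28) and in CS+LPS+PPG (median 2.52) than in control replicates 1 and 2. With the slide as a block in the fit, the median difference of CS+LPS, of CS+LPS+NaHS and of CS+LPS+PPG from the control was -1.79, 1.28 and 2.52, and that of CS+LPS+NaHS and CS+LPS+PPG from CS+LPS was 2.79 and 4.22, with 4, 2, 8, 9 and 10 of the 10 genes called in this order, against 22.7%, 1.94%, 3.11%, 19.9% and 19.4% of all probes. The control is the one group present on both slides, so in this fit the slide and control replicate 3 cannot be told apart.

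**Figure D5:**
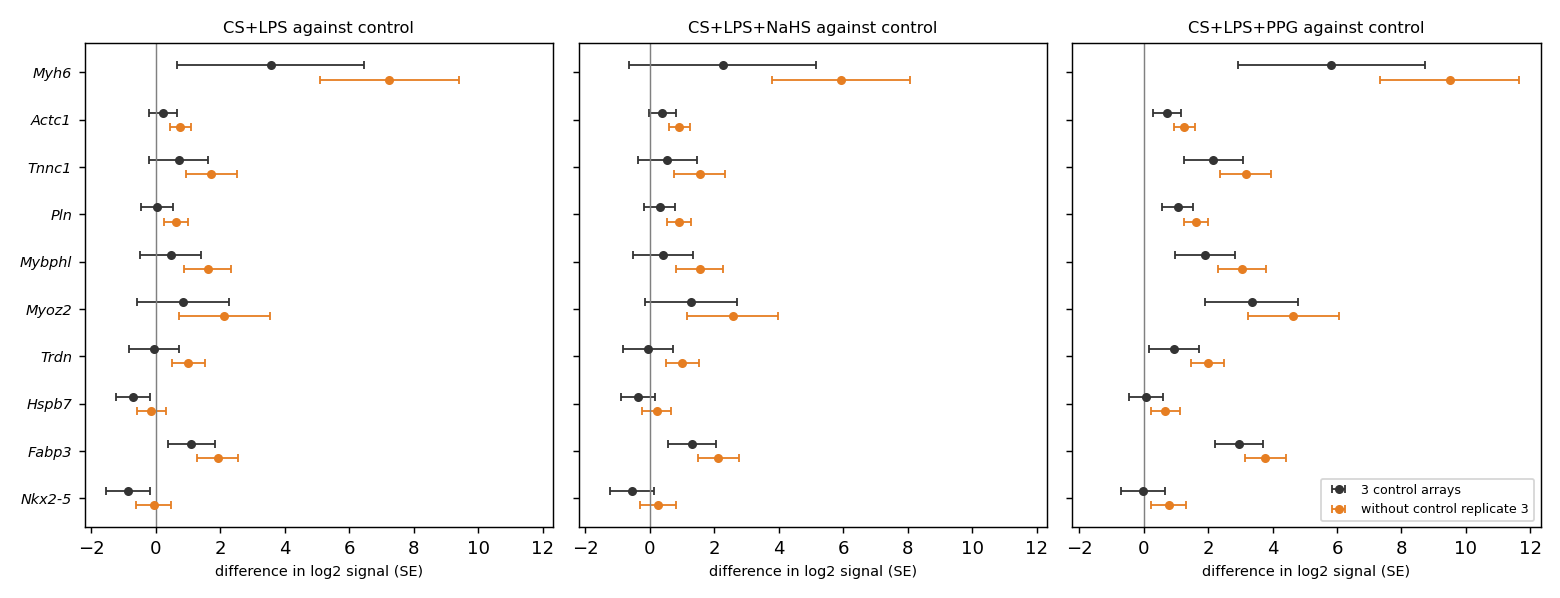
Difference of group means from the control on the log2 scale (horizontal axis) for the 10 genes in CS+LPS, in CS+LPS+NaHS and in CS+LPS+PPG, with bars of 1 SE from the fit over all probes. Values with all 3 control arrays and without control replicate 3 stand side by side, and for Fabp3 in CS+LPS+PPG they are 2.96 and 3.77. Differences of Myh6 and Myoz2 without control replicate 3 rest on control values that are not well above background. Without that array, the CS+LPS arrays and the remaining controls lie on different slides.

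Among the 58 tested genes of the other heart and striated muscle lists, calls by the adjusted p in limma were 1, 0, 1, 0 and 0 in the 5 comparisons. In CS+LPS compared with the control, 1 of 58 fell, Mypn, a Z disc protein, by 1.47 on the log2 scale (SE 0.26, adjusted p = 0.0289), with levels of 6.62, 6.72 and 7.03 in the control and 4.66, 5.57 and 5.73 in CS+LPS. In CS+LPS+PPG compared with the control, 1 of 58 fell, Pdk4, a kinase that holds back glucose oxidation, by 1.99 (SE 0.41, adjusted p = 0.034). Neither call held without control replicate 3, where the differences were -1.35 and -1.67. Of the 12 fits that left out 1 array each, the call of Mypn was lost in 4 and that of Pdk4 in 7, with differences from -1.68 to -1.14 and from -2.19 to -1.67. At an unadjusted p under 0.05 there were 5, 7 and 17 of the 58 genes in CS+LPS, in CS+LPS+NaHS and in CS+LPS+PPG compared with the control, against 25.2%, 17.1% and 29.3% of all probes. Compared with CS+LPS there were 4 in CS+LPS+NaHS and 9 in CS+LPS+PPG, against 9.67% and 10.5%. By the thresholds of the study, 0, 0, 5, 1 and 4 of the 58 genes were called higher in the 5 comparisons, and 2, 1, 1, 0 and 0 lower. In the same order, 4.56%, 2.67%, 4.38%, 1.7% and 2.05% of all probes were called in either direction.

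The medians of these lists over CS+LPS+PPG compared with CS+LPS, beside 0.02 for all probes, were 1.29 for the 6 atrial genes, 1.68 for the 13 sarcomere genes and 1.39 for the 9 energy genes on the log2 scale, but -0.05 for calcium handling, -0.03 for transcription factors and 0.08 for skeletal muscle. For smooth muscle the median was -0.38, for lung epithelium 0.08 and for fat 1.31. All 9 fat genes had higher values on every CS+LPS+PPG array than on any CS+LPS array, while 19.1% of all probes did not overlap in either direction. Of these genes, Adipoq was tested only through its CS+LPS+PPG arrays. As the CS+LPS arrays lay on a different slide from the CS+LPS+PPG arrays, group and slide cannot be told apart in these values. The median of the fat genes compared with the control was 1.11 in CS+LPS+PPG, -0.57 in CS+LPS and -0.80 in CS+LPS+NaHS. No gene of the fat, smooth muscle, lung epithelium, red blood cell, mesothelium or T cell lists passed the adjusted p of limma in any of the 5 comparisons with all arrays, and Adipoq, for example, differed by 4.68 (SE 1.84, adjusted p = 0.403) between CS+LPS+PPG and CS+LPS. Of the 39 tested genes of these 6 lists, 3, 5, 8, 0 and 5 had an unadjusted p under 0.05 in CS+LPS, in CS+LPS+NaHS and in CS+LPS+PPG compared with the control and in CS+LPS+NaHS and CS+LPS+PPG compared with CS+LPS. The shares of all probes were 25.2%, 17.1%, 29.3%, 9.67% and 10.5% in the same order. Of the 9 fat genes, 2 had an unadjusted p under 0.05 in CS+LPS+PPG compared with the control and 5 compared with CS+LPS, against 29.3% and 10.5% of all probes. In the pancreas list, Cel, a lipase, fell by 2.07 in CS+LPS+PPG compared with the control (SE 0.45, adjusted p = 0.037) and Ctrb1, chymotrypsinogen, rose by 2.39 in CS+LPS+NaHS compared with CS+LPS (SE 0.43, adjusted p = 0.0385). The call of Cel was lost without control replicate 3, where the difference was -1.55, and of the 12 fits that left out 1 array each the call of Cel was lost in 8 and that of Ctrb1 in 8, with differences from -2.44 to -1.55 and from 2.25 to 2.65.

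Without control replicate 3, more genes of the lists passed in CS+LPS+PPG compared with the control, in a fit that called 3.02% of all probes by the adjusted p. That array was left out for the lists after the data were seen, and it had the highest mean of the fat genes. By the same kind of bound, Sln was at least 59.1-fold higher (adjusted p = 0.0401). Cox6a2, a muscle subunit of cytochrome c oxidase, rose by 4.66 (adjusted p = 0.0401) and Casq2 by 3.00 (adjusted p = 0.0439). Ckmt2, the mitochondrial creatine kinase of striated muscle, was at least 157-fold higher (adjusted p = 0.049). Smyd1, a methyltransferase of striated muscle, passed (adjusted p = 0.0495), but it was well above background on 2 CS+LPS+PPG arrays and on 0 control arrays. Tnnc2 rose by 1.29 (adjusted p = 0.0472), while Popdc2, a membrane protein of heart muscle, fell by 0.75 (adjusted p = 0.0385). Fat genes passed beside them, 7 of 9 tested, including Adipoq, which was at least 45.7-fold higher (adjusted p = 0.0418), and Fabp4, the fatty acid-binding protein of fat cells, which rose by 2.06 (adjusted p = 0.0249). Adipoq was tested only through its CS+LPS+PPG arrays, so its call is no support. Sln, Casq2, Cox6a2 and Ckmt2 are among the 20 genes most like Myh6, so these calls rest on the same arrays as the levels of Myh6 itself.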

How the data were processed

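Total RNA of 12 lung samples, labelled with Cy3, was hybridised to 1-colour Agilent rat arrays of 62976 spots, 1 array a sample, in 4 groups of 3 taken from the sample labels. The authors deposited the Feature Extraction output of each array (version 10.7 per the submitters' processing notes, 10.7.3.1 per the file headers), whose processed signal is a linear fluorescence intensity, less the background of the spot. In addition the authors deposited lists of differentially expressed probes too, and of these only the log2 values of each sample for Fabp3 and Myoz2 served as an alternative. Their fold changes and p-values hold the authors' comparisons and were not used.

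Spots marked as outliers were dropped, log2 of the processed signal was averaged over the spots of a probe, and the arrays were shifted so that their 75th percentile equalled the mean of the 12 percentiles. Of 30367 probes, 21239 were tested, those that some group detected well above background on each of its 3 arrays. Between 446 and 704 spots an array were outliers. With 1-colour arrays, the number of arrays and the signal over background limit the precision. Probes were named through their RefSeq accession in a GRCr8 listing of genes (17514 probes, 9 of the 10 genes) or from the authors' lists (194 probes, among them Myoz2), and 12659 probes had none. The most intense tested probe stood for a gene. In the ranking by likeness to Myh6, the tested probe with the highest r did instead, which concerned Lrrc39 (2 tested probes) and Dbp (3).

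The linear model of limma 3.58.1 (R 4.3.3, data.table version 1.17.8) was fitted to the 12 arrays, and 5 comparisons were read from it with two-sided tests and Benjamini-Hochberg adjustment over all probes. The fits were tested on simulated data. Figures were drawn with matplotlib 3.10.9 in Python 3.11.15.

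The 10 genes and the lists were chosen with earlier results of these data known. Named besides the 10 were the 20 genes most like Myh6, list genes with an adjusted p under 0.05 and a fixed set of defining markers. Smyd1, Tnnc2, Tpm1, Ankrd1, Nrap, Gja5, Tbx5, Kcnj3, Ucp1, Lep and the undetected list genes were named after their values were seen. Alternatives were quantile normalization, the percentile over probes detected on all 12 arrays, normexp with an offset of 50 (on the median signal of a spot), outlier spots kept, the slide or the replicate number as a block, other filters, the mean of a gene's probes, the methods' t-test, and leaving out each array. Leaving out control replicate 3 for the lists, the linear scale and the authors' log2 values were added after seeing the data.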

Additional observations from a re-analysis of the deposited data

How the results depend on the processing

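The median difference of the 10 genes kept its direction in all 5 comparisons under quantile normalization, the percentile over detected probes, normexp, kept outlier spots, averaged probes and the replicate number as a block. With the slide as a block it was -1.79 in CS+LPS compared with the control, as within the slide of control replicate 3, and 2.79 in CS+LPS+NaHS and 4.22 in CS+LPS+PPG compared with CS+LPS. That fit called 4, 2, 8, 9 and 10 of the 10 genes in CS+LPS, in CS+LPS+NaHS and in CS+LPS+PPG compared with the control and CS+LPS+NaHS and CS+LPS+PPG compared with CS+LPS. It called 4831, 412, 660, 4224 and 4120 probes in the 5 comparisons, instead of 969, 567, 930, 361 and 435. Throughout this section, genes of the other lists (list genes) are counted at an adjusted p below 0.05. Probes and the 10 genes are counted by the thresholds of the study, unless the adjusted p is named. With the slide as a block, 41, 14, 33 and 48 list genes passed the adjusted p in these comparisons other than CS+LPS+NaHS compared with the control. The lists hold 58 tested genes of heart and striated muscle and 4 of the pancreas. A further 39 belong to the fat, smooth muscle, lung epithelium, red blood cell, mesothelium and T cell lists. By the thresholds of the study, this fit called 22.7%, 3.11%, 19.9% and 19.4% of all probes in the same comparisons. The share of all probes by the adjusted p is not given for this fit, so nothing was read from these counts of list genes. In this fit the slide rests on 1 array, control replicate 3.

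In the order of comparisons just given, normexp called 444, 254, 384, 96 and 122 probes instead of 969, 567, 930, 361 and 435, and 3 list genes in CS+LPS compared with the control instead of 1. Without a filter 2069, 1258, 654 and 852 probes were called in the comparisons other than CS+LPS+PPG compared with the control, and with the filter on all 12 arrays 191 and 223 in the comparisons with CS+LPS, where fewer probes were tested. The methods' t-test called 443, 279 and 498 probes compared with the control, with 1, 0 and 0 after Benjamini-Hochberg adjustment, and 1 of the 10 genes, Fabp3, in CS+LPS+PPG compared with the control. By the adjusted p, 1 of the 10 genes was called there and 0 compared with CS+LPS. Quantile normalization left 0 list genes in CS+LPS compared with the control and 0 in CS+LPS+NaHS compared with CS+LPS, and the percentile over detected probes gave 2 in the latter and 1 in CS+LPS+PPG compared with CS+LPS. The cause was not tested. The replicate numbers do not pair the samples, as 2 of 18 pairs with the same number had a correlation of deviations over 0.1 (from -0.309 to 0.139). With the replicate block, 1 of the 10 genes was called in CS+LPS+PPG compared with the control. The share of all probes is not given for that fit, so nothing was read from this count. In the same fit, 0 list genes passed in CS+LPS and in CS+LPS+PPG compared with the control and in CS+LPS+NaHS compared with CS+LPS.

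With each array left out in turn, 612 to 1790, 412 to 1228, 660 to 1602, 330 to 446 and 384 to 526 probes were called. The median difference ran from -0.21 to 1.31, -0.09 to 1.28, 0.97 to 2.52, -0.43 to 0.62 and 0.95 to 1.70, and 0 to 2, 0 to 2, 1 to 8, 0 to 0 and 0 to 3 of the 10 genes were called, with 0 to 4, 0 to 0, 0 to 14, 0 to 2 and 0 to 3 list genes. It turned below 0 without control replicate 2 (-0.13) or CS+LPS replicate 1 (-0.21) in CS+LPS compared with the control, and without CS+LPS+NaHS replicate 2 (-0.09) in CS+LPS+NaHS compared with the control. In CS+LPS+NaHS compared with CS+LPS it did so without CS+LPS replicate 3 (-0.23) or CS+LPS+NaHS replicate 2 (-0.43). The median r with Myh6 was 0.89, and 0.853 to 0.920 with 1 array left out, 0.87 by Spearman's rho, 0.93 for deviations from group means, 0.95 on the slide of 8 arrays, 0.83 on the linear scale and 0.77 without control replicates 1 and 2, the arrays farthest from the median of Myh6. From the authors' log2 values, Fabp3 and Myoz2 differed by 3.01 and 3.41 between CS+LPS+PPG and the control. Levels not well above background, 13 of the 120 pairs of a gene and an array, are upper bounds, which limits Myh6, Myoz2, Nkx2-5 and Hspb7 most.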
